A study of Mus musculus with 22 samples.

Results

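Nuclear genes that encode subunits of respiratory chain complexes I to IV were followed in mouse liver. They were taken by symbol: the Ndufa, Ndufb, Ndufc, Ndufs and Ndufv series of complex I, Sdha to Sdhd of complex II, Cyc1 and the Uqcr genes of complex III, and the Cox4i, Cox5, Cox6, Cox7 and Cox8 series of complex IV, without symbols marked as pseudogenes. The rule found 72 of the 45777 genes listed, with 41 in complex I, 4 in complex II, 9 in complex III and 18 in complex IV. Ndufab1, a complex I subunit, has a symbol the rule does not match. Ndufa4 was counted with complex I by its name, although later work places it in complex IV, and Cox7a2l, a factor of supercomplex assembly, was counted with complex IV.

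The respiratory chain passes electrons from NADH (complex I) or succinate (complex II) through ubiquinone, complex III and cytochrome c to oxygen (complex IV), and complexes I, III and IV pump protons across the inner mitochondrial membrane. Its subunits come from both genomes: the mitochondrial DNA encodes a few membrane subunits of complexes I, III and IV, and nuclear genes encode the rest, including the whole of complex II. Liver relies on this chain to oxidise fatty acids, and transcription of the nuclear subunits is classically tied to NRF1, to the ETS factor GABPA (NRF2), to YY1 and to the oestrogen-related receptors acting with PGC-1 coactivators.

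Liver polyA RNA of male wild-type C57BL/6J mice was sequenced in 22 libraries, in 2 cohorts of 11 that the labels also call batches. The HFD cohort held 3 livers of normal-diet mice given vehicle, 4 of mice fed a high-fat diet (HFD, labelled MASLD) and given vehicle, and 4 of HFD mice given DTMB, a compound known only by this code name, by mouth at 10 mg/kg/day. The MCD cohort held 4 livers of normal-diet mice given vehicle, 4 of mice on a diet lacking methionine and choline (MCD, the labels' MASH model), also with vehicle, and 3 of MCD mice given DTMB in the same way. No group received DTMB on normal diet, and neither the age of the mice nor the time on diet was stated in the labels used here. Each library is labelled a biological replicate, and nothing says how mice were housed or paired.

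Library totals lay between 50078966 and 66727450 counts, and replicates differed by far more than counting error (at least 26.7 in chi-square per degree of freedom). All 10 hepatocyte markers were detected in every library, with a summed level of 74508 to 117579 CPM (a gene's counts scaled to a common library total, here the plain total of each library). Transcripts of pancreatic acinar cells, a neighbouring tissue, exceeded 100 CPM (14 genes summed) in 6 libraries: normal-diet replicates 1 and 3, HFD vehicle replicates 1 and 4 and HFD DTMB replicate 3 of the HFD cohort, and normal-diet replicate 4 of the MCD cohort. Normal-diet replicate 1 of the HFD cohort also held skeletal muscle transcripts (10 genes, 271.8 CPM summed, against 7.7 CPM or less in the other libraries). In whole tissue, fewer cells of a type and less RNA per cell cannot be told apart.

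Promoter letters of those 4 regulators were counted. RefSeq windows (GRCm38.p6, 250 bases before to 50 after the start) matched 54 of the 72 genes, and the motif letters were searched on both strands. A 10-letter NRF1 motif, which reads the same on both strands except at its middle and appears as the capitals of the first 3 windows printed here, was found in 11 of 54 members (20.4%) and in 5.19% of 27025 genes. The ETS letters CCGGAAGT were found in 4 members (7.41%, against 4.31% of genes) and an 11-letter YY1 motif in 4 (7.41%, against 0.755%). The oestrogen-related receptor letters TCAAGGTCA were found in 1 member, Sdhd (1.85%, against 0.466%). Ndufs6 held both NRF1 and YY1 letters. The 120 bases before the start of 5 members are shown, with the motif letters in capitals, because these genes carry the results given here: Ndufb4 and Ndufa11 (NRF1) and Uqcr11 and Uqcrh (ETS) rose with DTMB on HFD, while Sdha, with 3 NRF1 matches, was not called there. The windows are Ndufb4 chr16:37654369-37654488, Sdha chr13:74350241-74350360, Uqcr11 chr10:80406822-80406941 and Uqcrh chr4:116075071-116075190 on the minus strand and Ndufa11 chr17:56717642-56717761 on the plus strand, each read 5′ to 3′ along the gene.
Ndufb4: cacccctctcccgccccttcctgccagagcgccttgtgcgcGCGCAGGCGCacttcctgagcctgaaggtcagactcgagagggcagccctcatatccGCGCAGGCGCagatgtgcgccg
Ndufa11: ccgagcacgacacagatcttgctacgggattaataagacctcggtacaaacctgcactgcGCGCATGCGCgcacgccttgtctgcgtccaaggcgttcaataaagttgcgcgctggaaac
Sdha: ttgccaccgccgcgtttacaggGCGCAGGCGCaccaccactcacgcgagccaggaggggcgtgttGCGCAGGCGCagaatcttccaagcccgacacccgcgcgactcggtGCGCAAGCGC
Uqcr11: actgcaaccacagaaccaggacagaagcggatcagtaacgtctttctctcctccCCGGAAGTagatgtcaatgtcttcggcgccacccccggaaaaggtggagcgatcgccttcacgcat
Uqcrh: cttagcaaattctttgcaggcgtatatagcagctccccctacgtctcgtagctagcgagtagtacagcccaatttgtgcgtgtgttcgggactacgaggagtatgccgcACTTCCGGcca
The NRF1 letters began 79 and 22 bases before the start in Ndufb4 and 60 bases before it in Ndufa11. A match is a description of the letters only, and the absence of a match in the other members says only that these letters are not in the window.

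The 60 broadly expressed members lay between 17.8 and 549 CPM (on TMM-scaled library sizes) in every library of the HFD cohort and between 25.9 and 682 CPM in the MCD cohort.  Per kilobase of annotated exon, Cox4i1, the widely expressed form of complex IV subunit 4, led in both normal-diet groups. It had 469 ± 30.2 CPM per kilobase (SD, n = 4) in the MCD cohort. Ndufa4 followed with 442 ± 19.8, within 1 SD of Cox4i1, then Cox6a1 with 378 ± 14.8, Cox8a with 353 ± 27.2 and Uqcrh with 346 ± 25.5, the last 3 overlapping in spread. The HFD cohort's normal-diet livers gave these 5 genes in the same order. Annotated exons sum all isoforms of a gene, which lowers this scale for genes such as Ndufb2 (4375 exon bases, 6.84 ± 0.548 CPM per kilobase).

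The isoforms restricted to other tissues were near or at 0. Cox8c (testis), Cox7b2 and the gene copy Ndufa11b had no count in any of the 22 libraries. A count of 0 allows up to 3 counts in a library. Cox4i2, the lung isoform, did not exceed 0.116 CPM, and Cox8b, the striated muscle and brown fat isoform, was highest in the normal-diet library with muscle transcripts and reached 0.158 CPM at most elsewhere. Ndufa4l2, a hypoxia-inducible relative of Ndufa4, lay between 0.573 and 1.40 CPM. Of the 72 members, 67 passed the filter on low counts in the HFD cohort and 66 in the MCD cohort. Ndufb4b, Ndufb4c and Ndufs6b are near-identical copies of Ndufb4 and Ndufs6, and how reads shared between them were counted was not stated, so values of copies and parents are uncertain.

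**Figure D1:**
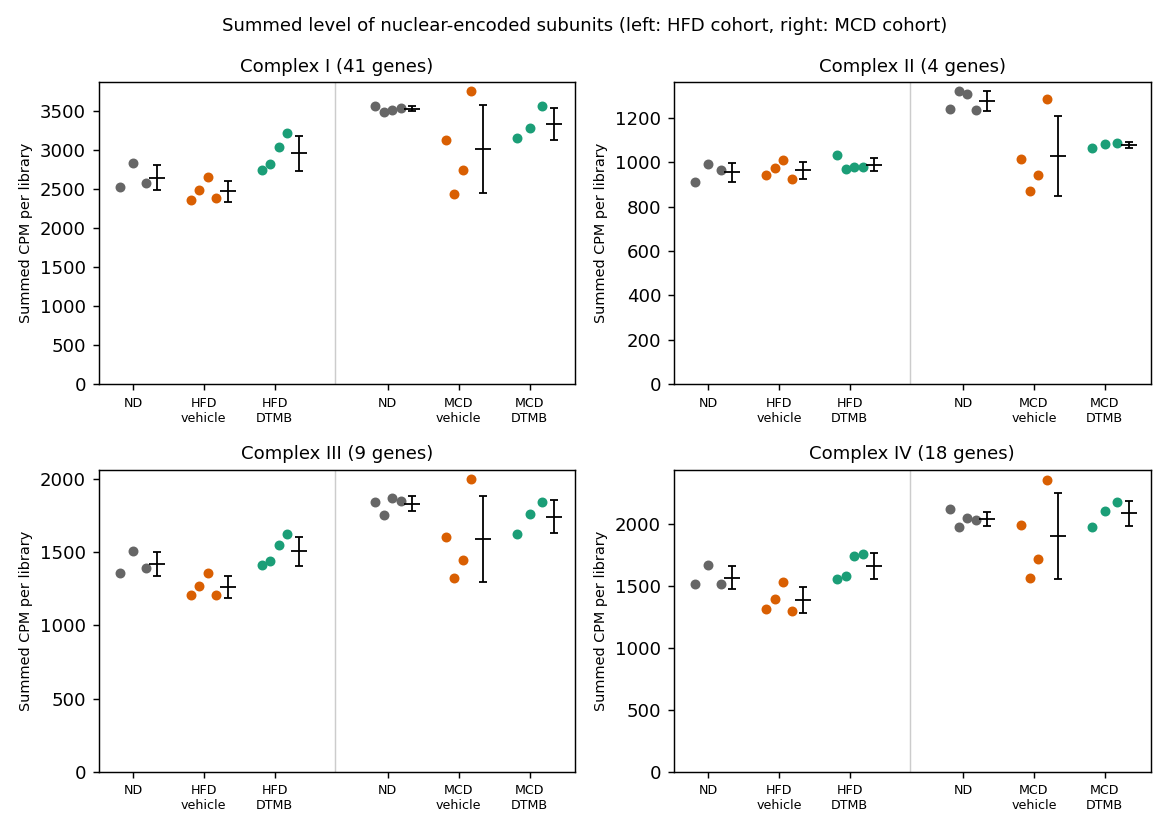
Summed CPM (y axis, from 0, on TMM-scaled library sizes) of all members of complexes I, II, III and IV in each library (points) by group (x axis), with the group mean and SD beside them. The 4 HFD DTMB libraries lie above the 4 HFD vehicle libraries for complexes I, III and IV, which on plain library totals HFD DTMB replicate 2 does not, and the 4 MCD vehicle libraries spread from 2444 to 3759 CPM for complex I.

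On HFD with vehicle, both nuclear-encoded redox subunits and 2 of 5 small subunits of complex III were among the members that fell. So were Ndufs7 of complex I and Sdhd of complex II. Against normal diet, 10 of 67 tested members fell and 0 rose in HFD vehicle livers, with 12.6% of all 15597 genes called lower and 15.2% higher. The share that fell was near the background, and is no result about the members as a list. In 16 members every HFD library lay below every normal-diet library and in 3 above (17% and 19% of all genes). The median log2 fold change of the members was -0.11, beside 0.02 for all genes. With scaling by library size alone 5 members were called higher and 3 lower, the members' median was 0.02 and that of all genes 0.14, so the members lay 0.12 below all genes under both scalings. By complex, 3 of 40 members fell in complex I, 1 of 4 in complex II, 4 of 9 in complex III and 2 of 14 in complex IV.

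In complex III, both nuclear-encoded subunits that carry redox centres fell on HFD. Cyc1, cytochrome c1 (gene ID 66445, chromosome 15, 76343513 to 76346260), read 172, 183 and 172 CPM on normal diet and 138, 148, 156 and 130.5 CPM in HFD vehicle livers. The groups did not overlap, and the log2 fold change was -0.30 ± 0.08 (SE), adjusted p = 0.0139 in edgeR's quasi-likelihood test. Uqcrfs1, the Rieske iron-sulfur protein, changed by -0.28 ± 0.08 (SE) with adjusted p = 0.0166. The small subunit Uqcr10 had the largest fall in this complex: 81.3, 86.0 and 76.4 CPM on normal diet and 58.9, 61.1, 68.7 and 54.4 CPM on HFD, -0.42 ± 0.09 (SE), adjusted p = 0.00631. The core proteins Uqcrc1 (-0.14 ± 0.07) and Uqcrc2 (-0.02 ± 0.07) were not called, and neither were the small subunits Uqcrq (-0.03 ± 0.09) and Uqcrb (0.00 ± 0.10).

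In complex I the fall was led by Ndufs7, a core subunit that holds an iron-sulfur cluster near the ubiquinone site. It read 54.3, 59.8 and 48.3 CPM on normal diet and 35.1, 40.4, 41.1 and 29.1 CPM on HFD, -0.57 ± 0.11 (SE), adjusted p = 0.00323, and every HFD vehicle library lay below every normal-diet library. The accessory subunits Ndufb9 (-0.29 ± 0.09) and Ndufa11 (-0.27 ± 0.08) fell as well. Of the other subunits with redox centres, Ndufs1 (-0.01 ± 0.08) and Ndufv1 (-0.19 ± 0.07) were not called. By library size alone Ndufs7, Uqcr10 and Sdhd were still called lower, and Cyc1, Uqcrfs1, Ndufb9, Ndufa11, Cox5a and Cox5b were not. In complex II only the membrane anchor Sdhd was called, with 195, 224 and 198 CPM on normal diet and 158, 158, 173 and 153 CPM on HFD (-0.36 ± 0.09 (SE), adjusted p = 0.00943). Sdha, in contrast, read 461, 479 and 503 CPM on normal diet and 524, 537, 549 and 522 CPM on HFD, 0.15 ± 0.08 (SE), adjusted p = 0.174. Complex IV had Cox5a (-0.27 ± 0.08) and Cox5b (-0.23 ± 0.07) lower, and all 14 tested members had a negative log2 fold change on the TMM scale. The 10 widely expressed subunits had -0.27 to -0.11. Cox6a2, Cox6b2 and Cox7a1, also among the 14, had few counts and were highest in normal-diet replicate 1, the library with muscle transcripts.

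Cell type markers moved on HFD as well. All 8 markers of Kupffer cells and macrophages were positive (median 0.85, 2 called higher), with a sum of 140 to 404 CPM on HFD and 86.9 to 147 CPM on normal diet. All 6 lymphocyte markers (median 1.13, 1 called higher) and all 5 erythroid genes (0.54, 1 called higher) were positive too, while 8 of 10 hepatocyte markers were negative (median -0.28, 3 called lower and 2 higher). All genes had 15.2% called higher and 12.6% lower. The part of cell composition in the fall of the subunits was not tested.

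The 10 calls on HFD rest on few mice. Leaving out normal-diet replicate 2 gave 5 (1 of them higher), and leaving out HFD vehicle replicate 1, 2 or 4 gave 5, 6 and 5. Without the 5 libraries of this cohort with acinar transcripts, 2 members were called, 1 in each direction, with a median of -0.15. That fit keeps only normal-diet replicate 2, whose spread is taken from the other groups.

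DTMB on HFD came with higher levels of many subunits. Against HFD vehicle, 29 of 67 tested members rose and 0 fell, where 6.64% of all 15597 genes were called higher and 6.04% lower. The members' median log2 fold change was 0.25, beside -0.01 for all genes. In 36 members the 4 DTMB libraries all lay above the 4 vehicle libraries, against 10.5% of all genes, and in 0 members they all lay below (9.35% of all genes). Summed over the 72 members, the libraries held 6746, 6802, 7317 and 7579.9 CPM with DTMB and 5825, 6128, 6559 and 5826 CPM with vehicle, and 6317, 7008 and 6441 CPM on normal diet. On this TMM scale the lowest DTMB library stood above the highest vehicle library, and the normal-diet libraries overlapped both. On plain library totals the groups overlapped: HFD DTMB replicate 2 held 6297.5 CPM, within the vehicle range of 6288 to 6583 CPM. Statements on overlap of single genes are on the TMM scale as well. With scaling by library size alone, 10 members were called higher and 2 lower and the members' median was 0.10, while that of all genes was -0.17, so the members stood 0.26 above all genes, as they did by 0.27 in the reported fit.

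Complex I held 19 of the 29. Of its 40 tested members 19 rose, among them 12 of 19 accessory subunits of the membrane arm, 3 of 9 accessory subunits of the peripheral arm and 2 of 7 core subunits (Ndufs3 and Ndufs8), together with Ndufa4 and the copy Ndufb4c. Ndufb8, an accessory subunit of the membrane arm often used as a marker of assembled complex I (gene ID 67264, chromosome 19, 44548571 to 44555442), read 85.1, 87.3, 95.6 and 88.4 CPM with vehicle and 109.6, 109.7, 138 and 142 CPM with DTMB. All DTMB libraries lay above all vehicle libraries and also above the normal-diet libraries (96.3, 103 and 96.8 CPM), with a log2 fold change of 0.49 ± 0.09 (SE) and adjusted p = 0.0115. Ndufb2, another small membrane-arm subunit, showed the largest rise of any tested member that was called, 0.59 ± 0.12 (SE), adjusted p = 0.0158: 24.4, 26.0, 30.1 and 21.8 CPM with vehicle and 32.7, 33.5, 43.9 and 44.1 CPM with DTMB. Ndufb4 read 40.7, 45.2, 48.0 and 46.4 CPM with vehicle and 51.1, 55.9, 67.3 and 73.0 CPM with DTMB (0.46 ± 0.11 (SE), adjusted p = 0.0209).

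Other called members of complex I were Ndufa2 (0.44 ± 0.09), Ndufa6 (0.37 ± 0.08), Ndufa7 (0.38 ± 0.09), Ndufb7 (0.37 ± 0.08), Ndufb9 (0.37 ± 0.09) and Ndufb11 (0.38 ± 0.09). The subunits that bind the flavin and many of the iron-sulfur clusters were mostly not called. The 7 core subunits, which include them, still had a median of 0.25, as had all members. Of these 7, 6 had a positive log2 fold change, and in 5 all DTMB libraries lay above all vehicle libraries. The 1 negative core subunit was Ndufs1. Ndufs1, the largest subunit, read 126, 126, 132 and 139 CPM with vehicle and 132, 122, 120.5 and 129.7 CPM with DTMB, -0.05 ± 0.07 (SE), adjusted p = 0.660, with an interval of -0.20 to 0.09. Ndufv1, which binds NADH and the flavin, had 0.14 ± 0.06 and was not called, and Ndufa10 (-0.08 ± 0.06) and Ndufa9 (0.05 ± 0.07) were not called either.

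In complex II, the iron-sulfur subunit and 1 membrane anchor rose and the flavoprotein did not. Sdhb, the iron-sulfur subunit, read 130.2, 138, 140.2 and 131 CPM with vehicle and 155, 148, 165 and 168 CPM with DTMB, a rise of 0.24 ± 0.07 (SE), adjusted p = 0.0399. Sdhd rose by 0.32 ± 0.08 (SE), adjusted p = 0.0270, from the vehicle values given above to 185, 185, 207 and 225 CPM, overlapping its normal-diet libraries. Sdha (gene ID 66945, chromosome 13, 74322255 to 74350240) read 542, 493, 457 and 437 CPM with DTMB, and 3 of these 4 libraries lay below every vehicle library. Its log2 fold change was -0.14 ± 0.07 (SE), adjusted p = 0.191, and it was not called. The anchor Sdhc had 0.11 ± 0.08. The summed level of complex II did not separate the groups, with 967 to 1029.8 CPM with DTMB and 924 to 1011 CPM with vehicle.

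In complex III, 4 of 5 small subunits and Cyc1 rose with DTMB. Uqcrq, a small membrane subunit (gene ID 22272, chromosome 11, 53427922 to 53430831), read 188, 195, 220.1 and 172 CPM with vehicle and 242, 263, 284 and 303 CPM with DTMB, 0.49 ± 0.09 (SE), adjusted p = 0.0106. The DTMB libraries also stood above all normal-diet libraries (199, 199.9 and 194 CPM). Uqcr11 rose by 0.47 ± 0.09 (SE), adjusted p = 0.0133, from 76.1, 75.6, 86.0 and 68.0 CPM to 92.9, 97.3, 115 and 118 CPM. Uqcrh, the hinge protein, and Uqcr10 rose by 0.39 ± 0.10 and 0.36 ± 0.09, and Cyc1 by 0.24 ± 0.07. The core proteins were not called: Uqcrc1 had 0.05 ± 0.07 (SE) with an interval of -0.08 to 0.18, and Uqcrc2 0.09 ± 0.07 (SE) with -0.04 to 0.22.

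Complex IV had 3 of 14 tested members higher: Cox6c (0.44 ± 0.12 (SE), adjusted p = 0.0310), Cox7b (0.43 ± 0.09 (SE), adjusted p = 0.0172) and Cox7a2 (0.39 ± 0.09 (SE), adjusted p = 0.0192), all small nuclear subunits at the rim of the enzyme. Cox7b read 109, 118, 123 and 115 CPM with vehicle and 135, 144, 176 and 173 CPM with DTMB, without overlap. Cox4i1 read 236, 252, 299 and 232 CPM with vehicle and 291, 288, 315 and 308 CPM with DTMB, where 1 vehicle library overlapped the DTMB range, and it was not called (0.24 ± 0.08 (SE), adjusted p = 0.0728). The tissue-restricted isoforms Cox6a2, Cox6b2 and Cox7a1 were not called.

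**Figure D2:**
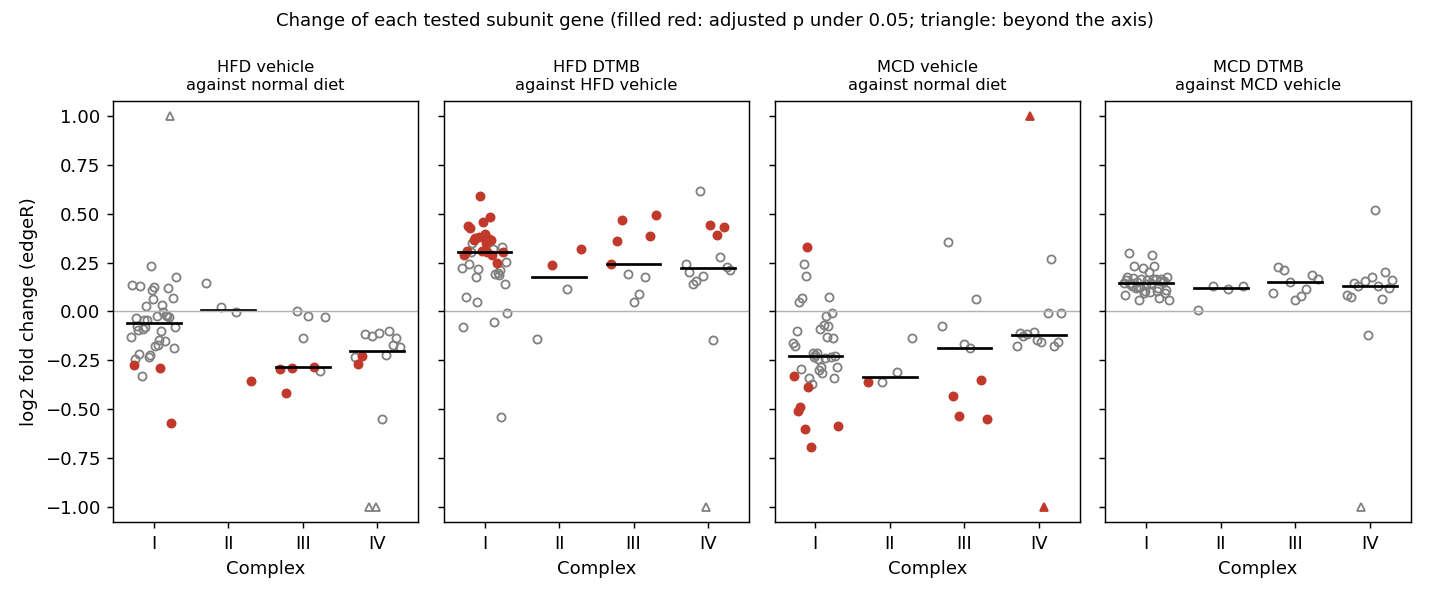
Log2 fold change (y axis) of every tested member by complex (x axis) in 4 comparisons, with members at adjusted p under 0.05 in filled red, members beyond the axis as triangles at its edge, and the median of each complex as a line. With DTMB on HFD 29 of 67 members were called, all higher, while with DTMB on MCD 0 of 66 were called. Directions of the diet panels depend on the scaling, as given in the text.

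The number of calls with DTMB on HFD depended on single mice and on the fit, while calls were lower in direction only under library size alone (2 members). It was 4 without HFD vehicle replicate 1, 10 without replicate 2 and 7 without replicate 4, and 17, 8 and 3 without HFD DTMB replicate 2, 3 or 4. Without the 5 libraries with acinar transcripts 0 members and 0 of all genes were called by edgeR, with 14 members at an unadjusted p under 0.05 and a median of 0.17. DESeq2 called 40 members and limma-voom 41, and all of them were higher.

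Gene length moved with this result. Over all genes tested, the median log2 fold change with DTMB on HFD was 0.21 for the 652 genes with up to 1000 annotated exon bases, 0.10 for those of 1000 to 2000, -0.02 for those of 2000 to 4000 and -0.12 for longer genes. The members of the first 3 classes had medians of 0.31 (34 members), 0.25 (23) and -0.03 (6), and Ndufb2, at 4375 bases, had 0.59. With offsets for length and GC content, an alternative added after the data were seen, 7 members were called, all higher, with a median of 0.22 beside 0.08 for all genes. Cytosolic ribosomal protein genes, which are short as well, had 70 of 79 tested members higher with DTMB and 57 of 79 lower on HFD. Of all genes 6.64% were called higher with DTMB and 12.6% lower on HFD. The part of transcript length in the rise of the subunits was not tested further.

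**Figure D3:**
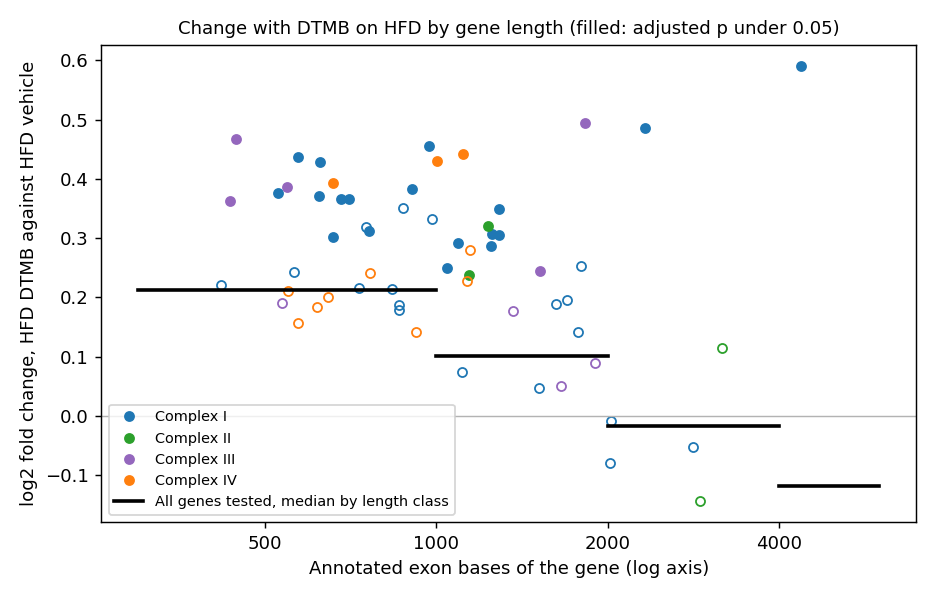
Log2 fold change with DTMB on HFD (y axis) against annotated exon bases (x axis, log scale) for 60 broadly expressed members, coloured by complex and filled where called. The black lines are medians of all genes tested in 4 length classes and fall from 0.21 to -0.12. Tested members of up to 1000 bases, with 4 tissue-restricted isoforms that are not drawn, have a median of 0.31. Those of 2000 to 4000 bases have one of -0.03.

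The neighbouring gene groups of the pathway differed among themselves in this comparison. Of complex V, the ATP synthase, 8 of 18 genes rose and 0 fell with DTMB on HFD, among them Atp5e (0.65 ± 0.12) and Atp5l (0.49 ± 0.10). Assembly factors of the chain had 10 of 46 tested genes higher and 0 lower, led by Coa6 (0.58 ± 0.11) and Cox14 (0.36 ± 0.08), both needed for complex IV. Mitochondrial ribosomal proteins had 20 of 78 higher and 0 lower, with Mrpl53 at 0.58 ± 0.09. Of the 13 subunits encoded in mitochondrial DNA, and of the 18 genes of the tricarboxylic acid cycle, which feeds NADH and succinate to the chain, 0 were called. Regulators of mitochondrial biogenesis had 4 of 20 higher, including the coactivator Ppargc1b (0.63 ± 0.18), which fell on HFD with vehicle. Genes of mitochondrial import and membrane had 8 of 32 higher and 1 lower. Those of coenzyme Q and the electron transfer flavoprotein had 2 of 22 higher and 1 lower, near the background. Of all genes 6.64% were called higher and 6.04% lower. 

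Markers of other cell types moved in this comparison too. All 10 hepatocyte markers had a positive log2 fold change with DTMB (median 0.35) and 4 rose, with Hnf4a at 0.37 ± 0.07. All 8 markers of Kupffer cells and macrophages were negative (median -0.70, 0 called), and their sum was 131 to 198 CPM with DTMB and 140 to 404 CPM with vehicle. All 6 lymphocyte markers (median -0.76, 1 called lower) and all 5 bile duct markers (-0.36, 0 called) were negative, as were 4 of 5 endothelial (-0.33, 1 called lower) and 4 of 5 stellate markers (-0.18, 1 called lower). Of 5 erythroid genes 2 rose, with a median of 0.82. All genes had 6.64% called higher and 6.04% lower. The part of cell composition in the rise of the subunits was not tested.

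Members with and without the NRF1 letters were both among those that rose. Of 11 tested members with the letters 4 rose (Ndufa11, Ndufa6, Ndufb4 and Sdhd), with a median log2 fold change of 0.21, and of 41 without them 19 rose, with a median of 0.28. These are counts over the members with a promoter window and no test of the difference was made.

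Set directly against normal diet, HFD DTMB livers had 16 members higher and 1 lower (29.2% of all genes called, 15.7% higher and 13.5% lower), with a median of 0.17, beside 0.01 for all genes. Complex I held 14 of the 16, and Sdhb and Uqcrq were the others. Ndufb4 (0.57 ± 0.11 (SE), adjusted p = 0.00326) and Ndufb3 (0.55 ± 0.09 (SE), adjusted p = 0.00111) had the largest rises among the parent genes. Ndufb3 read 37.4, 45.0 and 41.0 CPM on normal diet, 45.8, 47.3, 49.7 and 50.7 CPM on HFD with vehicle and 54.2, 55.8, 62.3 and 67.9 CPM with DTMB. The groups stood in that order without overlap, though the first step was not called (adjusted p = 0.0767). The lower gene was Cox6b2, the testis form of subunit 6b, at 0.635, 0.422 and 0.221 CPM on normal diet and 0, 0, 0.165 and 0 CPM with DTMB. All genes of up to 1000 annotated exon bases had a median of 0.26 in this comparison, and the 34 members of that length 0.15. For 1000 to 2000 bases these were 0.15 and 0.17 (23 members), and for 2000 to 4000 bases 0.03 and 0.08 (6 members). With length and GC offsets the members' median was -0.045, beside -0.007 for all genes. The part of transcript length in these rises was not tested. The 3 comparisons of this cohort share libraries and are not independent of each other. The count was 5 without normal-diet replicate 1, 9 without replicate 3, and 11, 8 and 5 without HFD DTMB replicate 2, 3 or 4. It was 0 without the libraries with acinar transcripts.

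**Figure D4:**
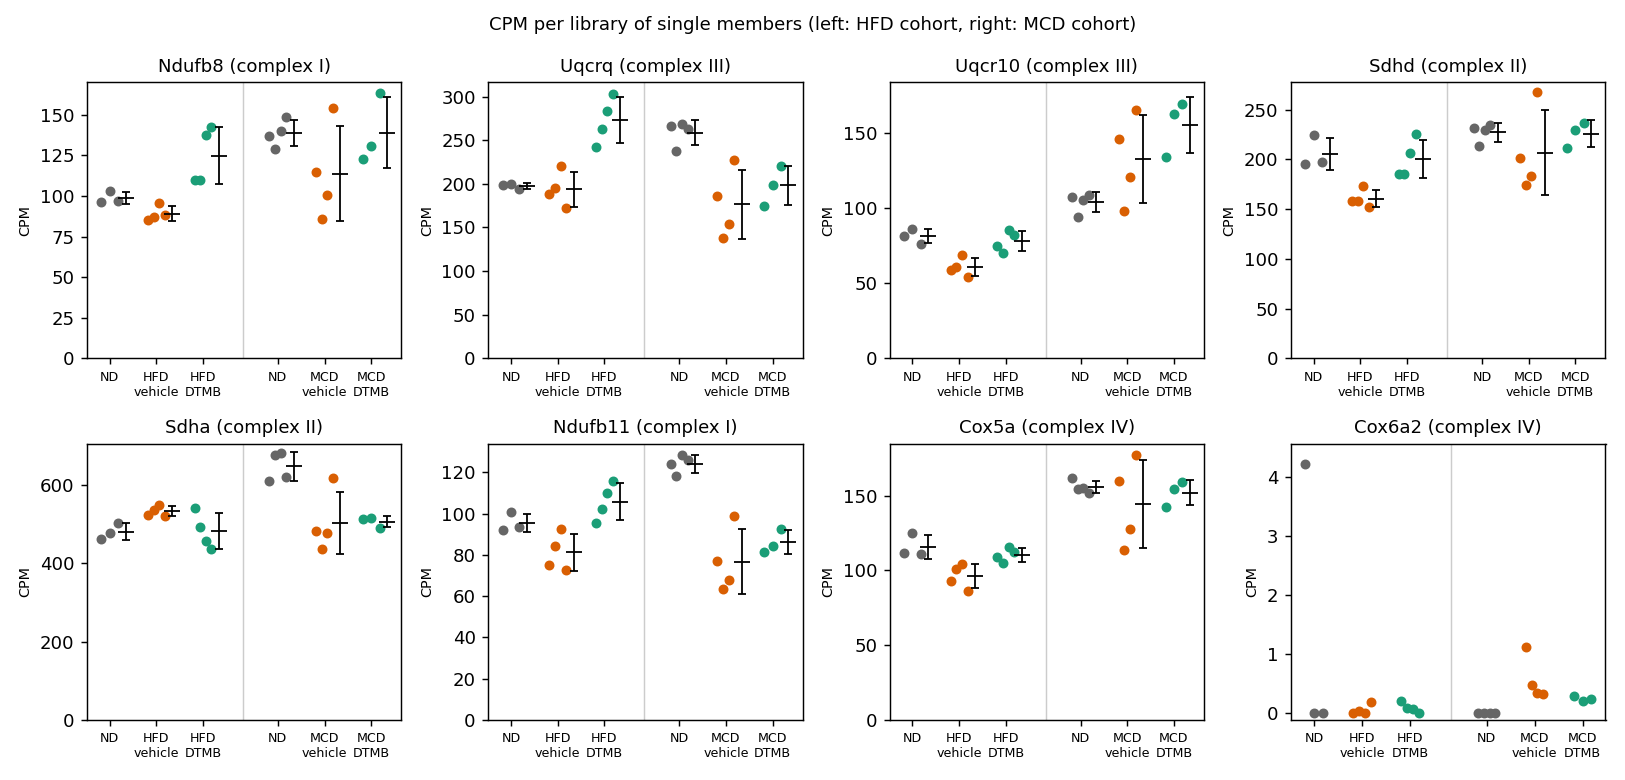
CPM (y axis, on TMM-scaled library sizes) of 8 members in each library (points) by group (x axis), with the mean and SD beside each group except for Cox6a2. Ndufb8 and Uqcrq are highest in the HFD DTMB group of their cohort, Sdha is not, and Cox6a2 is at 0 in the 4 normal-diet libraries of the MCD cohort.

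On MCD, 13 of 66 tested members fell and 2 rose in vehicle livers, where 41.3% of all 16037 genes were called (20.3% higher, 21% lower). In 11 members every MCD library lay below every normal-diet library and in 1 above (19.9% and 17.8% of all genes). These shares are near or below the background, and are no result about the members as a list. The median was -0.18, beside 0.00 for all genes. This direction rests on the scaling: with library size alone 32 members were called higher and 1 lower and the members' median was 0.27, but that of all genes was 0.47, so the members lay 0.20 below all genes there and 0.18 below in the reported fit. The TMM factors that differ between these fits were 0.785 to 0.894 on normal diet and 1.03 to 1.21 on MCD with vehicle. Changes on MCD are therefore relative to the bulk of genes.

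In complex I, 7 of 39 tested members fell, all of them accessory subunits, and Ndufb11 had the lowest log2 fold change. Ndufb11, a membrane-arm subunit on the X chromosome (gene ID 104130, chromosome X, 20615326 to 20617619), read 124, 118, 128 and 126 CPM on normal diet and 76.9, 63.4, 67.8 and 98.8 CPM on MCD. The groups did not overlap, with -0.69 ± 0.13 (SE), adjusted p = 0.00122. Ndufa6 changed by -0.60 ± 0.13 (SE) (adjusted p = 0.00385) and Ndufv3, next to the NADH-binding module, by -0.59 ± 0.13 (SE) (adjusted p = 0.00419). By library size alone the 3 values were -0.24 for Ndufb11, -0.15 for Ndufa6 and -0.14 for Ndufv3, and none was called. Ndufa13, Ndufa3, Ndufa9 and Ndufa10 fell by 0.33 to 0.51 on the log2 scale, with Ndufa9 at 0.07 by library size alone. None of the 7 core subunits was called, and Ndufs1 had -0.03 ± 0.10.

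Ndufa8 rose (0.33 ± 0.12 (SE), adjusted p = 0.0435), with 70.5, 76.6, 72.7 and 71.2 CPM on normal diet and 101, 69.1, 93.5 and 102 CPM on MCD, where 1 MCD library lay below the normal-diet range. In complex II, Sdha fell, with 612, 677, 682 and 621 CPM on normal diet and 483, 437, 477 and 619 CPM on MCD, where replicate 4 lay within the normal-diet range (-0.36 ± 0.12 (SE), adjusted p = 0.0261, and 0.09 by library size alone). Sdhb (-0.36 ± 0.14) and Sdhc (-0.31 ± 0.12) were close to the threshold and not called. In complex III, 4 of 5 small subunits fell: Uqcrq (-0.55 ± 0.15), Uqcrb (-0.54 ± 0.12), Uqcr11 (-0.43 ± 0.14, 0.01 by library size alone) and Uqcrh (-0.35 ± 0.13). The other, Uqcr10, read 108, 94.1, 105 and 108 CPM on normal diet and 146, 98.2, 121 and 165 CPM on MCD, 0.35 ± 0.15 (SE), adjusted p = 0.0754. None of the 10 widely expressed subunits of complex IV was called, with log2 fold changes of -0.18 to -0.01.

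Cell type markers differed between these groups. Of 10 hepatocyte markers 5 fell and 0 rose (median -0.39), and all 5 erythroid genes fell (-0.83). All 3 tested neutrophil markers rose (2.29), as did 3 of 5 stellate markers (0.75) and 2 of 5 endothelial markers (0.28). Calls were higher in 1 of 5 bile duct markers (0.39) and 2 of 8 markers of Kupffer cells and macrophages (1.01). Of 6 lymphocyte markers 2 fell (-0.62). All genes had 20.3% called higher and 21% lower, and the bile duct and Kupffer cell shares were near that. Of the Kupffer cell and macrophage markers 2 had a negative log2 fold change, and of the lymphocyte markers 3 did. The Kupffer cell and macrophage sum was 250.4 to 673.7 CPM on MCD and 99.6 to 311 CPM on normal diet. The stellate sum was 173 to 279.7 CPM and 53.5 to 117 CPM. The hepatocyte sum on plain library totals was 95298 to 117579 CPM on MCD and 74508 to 105895 CPM on normal diet, with overlap. The part of cell composition in the changes of the subunits was not tested.

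The MCD vehicle livers had the widest spread of summed members of the 6 groups. Summed over all members they held 7739, 6195, 6849 and 9390.3 CPM in replicates 1 to 4, against 8770.0, 8543, 8745 and 8657 CPM on normal diet. In replicate 4, 62 of 66 members lay above the group mean (median deviation 0.33 in log2 CPM), and in replicates 2 and 3 only 3 of 66 did (-0.27 and -0.12), while the median deviation of all genes was -0.02 to 0.01. Replicate 2 also had the highest summed markers of the group for Kupffer cells and macrophages (8 genes, 673.7 CPM, group range 250.4 to 673.7) and bile duct cells (5 genes, 188.4 CPM, range 48.6 to 188.4), and replicate 4 the highest hepatocyte sum (10 genes, 117579 CPM, range 95298 to 117579). The part of cell composition in this spread was not tested. Without replicate 4, 35 members were called, 34 of them lower, with a median of -0.28.

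**Figure D5:**
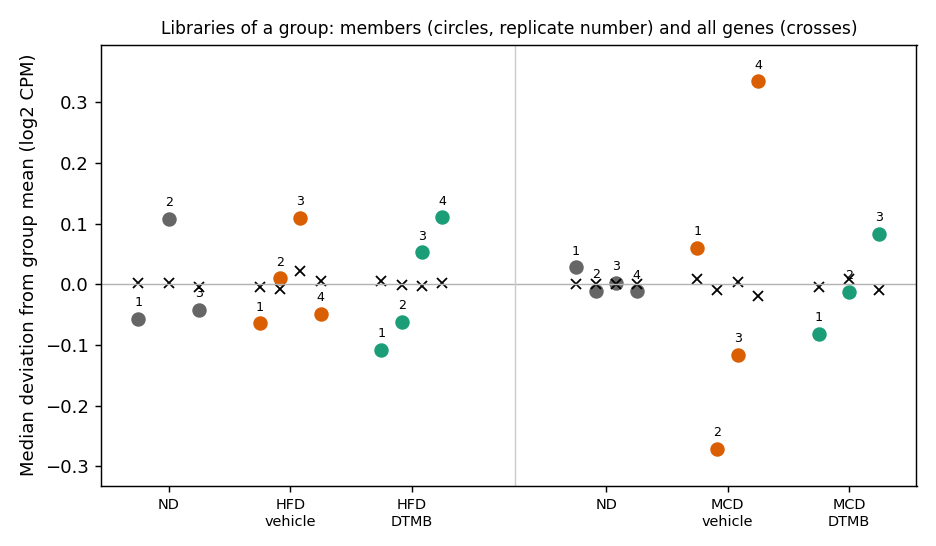
Median deviation of 66 members from their group mean in log2 CPM (y axis) in each library (circles with replicate number), by group (x axis), and the same for 15263 genes (crosses). MCD vehicle replicates 2 and 4 lie at -0.27 and 0.33, while the crosses lie between -0.02 and 0.02.

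Members moved together between mice of a group in both cohorts. Over the 11 libraries of a cohort, with the group means removed, pairs of members had a median Pearson correlation of 0.590 in the HFD cohort and 0.834 in the MCD cohort, against a median of -0.001 for pairs among 1527 genes taken at regular steps from the list of genes tested. Pairs within complex I had 0.625 and 0.835 and pairs within complex III 0.605 and 0.861. Pairs within complex II (0.421 and 0.789) and complex IV (0.398 and 0.783) lay below the medians of all members. Complex II has only 4 members, and the 14 of complex IV include Cox6a2, Cox6b2 and Cox7a1, which have few counts. All pairs share the same libraries and their scaling, so this is a description and the members do not count as independent genes in any tally given here.

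DTMB on MCD gave no call among the members. Against MCD vehicle, 0 of 66 members were called by edgeR and 0 were at an unadjusted p under 0.05, with 0.00624% of all genes (1 gene) called, and DESeq2 and limma-voom called 0 members too, with 0 and 30 members at an unadjusted p under 0.05. In 0 members every DTMB library lay above every vehicle library and in 1 below (2.59% and 3.27% of all genes). The members' median was 0.14, beside 0.02 for all genes, and 64 of 66 had a positive log2 fold change, with the co-variation between mice described above. Ndufb8 read 114, 85.9, 101 and 154 CPM with vehicle and 123, 131 and 164 CPM with DTMB, 0.29 ± 0.17 (SE), adjusted p = 0.923, and its interval of -0.05 to 0.63 holds the change seen on HFD. The DTMB libraries lay within the vehicle range for the summed members (7821, 8227 and 8671 CPM). The difference between the effect of DTMB on HFD and on MCD was tested for 67 members, and 0 were called, as were 0 of all 16541 genes, with 0 members at an unadjusted p under 0.05 in edgeR, 0 in DESeq2 and 1 in limma-voom. For Ndufb8 that difference was 0.21 ± 0.21 (SE) and for Uqcrq 0.34 ± 0.18 (SE). On simulated counts the procedure recovered 60% of genes changed 2-fold and 6% of genes changed 1.5-fold for DTMB on MCD, against 93% and 47% for DTMB on HFD. The simulation changed 200 genes, drew each gene independently and held no smaller changes. These rates are therefore not those of the members, which vary together.

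Against normal diet, MCD DTMB livers had 4 members higher and 6 lower (16.2% and 16.4% of all genes, 32.6% in all), with a median of -0.05, and 32 higher and 0 lower by library size alone, where all genes had a median of 0.37. Ndufv3 (-0.53 ± 0.14), Ndufb11 (-0.53 ± 0.14), Ndufa6 (-0.48 ± 0.14), Uqcrb (-0.39 ± 0.13), Sdha (-0.35 ± 0.13) and Ndufa9 (-0.33 ± 0.10) were lower, the last of them at 0.03 and Sdha at 0.01 by library size alone. Uqcr10 (0.58 ± 0.16 (SE), adjusted p = 0.0157), Ndufa5 (0.48 ± 0.17), Ndufa8 (0.46 ± 0.13) and Cox6a2 were higher. Uqcr10 read 134, 163 and 169 CPM, above all normal-diet libraries. The count was 6 and 5 without normal-diet replicate 1 or 3, and 3, 2 and 4 without MCD DTMB replicate 1, 2 or 3.

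The diets were also compared with each other. In a test of the difference between the HFD and MCD effects, 14 of 67 members were called, 9 with a more positive change on HFD and 5 with a more positive change on MCD, beside 35.3% of all genes (18.5% and 16.8%). Each diet was compared with the normal-diet group of its own cohort, and whether a batch changes the effect of a diet cannot be told apart from the diet. Uqcr10 fell on HFD (-0.42 ± 0.09) and had 0.35 ± 0.15 on MCD, a difference of -0.80 ± 0.18 (SE), adjusted p = 0.00212. Ndufv3 had 0.18 ± 0.07 on HFD and fell on MCD (-0.59 ± 0.13), a difference of 0.73 ± 0.15 (SE), adjusted p = 0.00101. The same order held for Sdha (0.48 ± 0.13 (SE), adjusted p = 0.00784) and Ndufa10 (0.44 ± 0.12 (SE), adjusted p = 0.00632). By library size alone 30 members differed, 28 of them more positive on MCD. The count was 9 without HFD-cohort normal-diet replicate 1, HFD vehicle replicate 2 or MCD-cohort normal-diet replicate 3, 22 without MCD vehicle replicate 4, and 1 without the libraries with acinar transcripts.

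Among the pathway's other genes, 11 of 13 mitochondrially encoded subunits fell on MCD with a median of -0.65, among them ND4L of complex I (-0.87 ± 0.12) and COX3 of complex IV (-0.80 ± 0.12), and 3 of 13 fell on HFD, including ND5 (-0.50 ± 0.09). Of these genes the library preparation selects only transcripts with a polyA tail. Assembly factors on MCD had 7 of 46 higher and 17 lower, with Surf1, a complex IV factor, at -0.90 ± 0.12. The tricarboxylic acid cycle had 5 of 18 higher and 2 lower. These calls are on the TMM scale and relative to the bulk of genes. On plain library totals, summed assembly factors lay at 1075 to 1279 CPM on MCD with vehicle and 932 to 997 CPM on normal diet. The cycle's sums were 3859 to 4350 CPM and 2299 to 2723 CPM. Those of the mitochondrially encoded subunits overlapped, with 61451 to 74401 CPM on MCD and 58312 to 92504 CPM on normal diet. All genes had 20.3% called higher and 21% lower on MCD, and 12.6% lower on HFD. The share of assembly factors called higher and that of the cycle called lower were below the shares of all genes on MCD. Regulators of mitochondrial biogenesis had 3 of 20 higher and 6 lower on MCD, with a median of -0.18 and 15 of 20 negative. On HFD 0 of them were higher and 7 lower. Among them, the receptor Esrra rose on MCD (0.89 ± 0.13) and fell on HFD (-0.51 ± 0.11), and its partner Ppargc1a rose on MCD (1.63 ± 0.30). Genes of coenzyme Q and the electron transfer flavoprotein had 4 of 22 higher and 6 lower on MCD, with a median of 0.02. The coenzyme Q gene Coq8a fell there (-2.42 ± 0.26).

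Cox6a2, the heart and skeletal muscle form of subunit 6a (gene ID 12862, chromosome 7, 128205435 to 128206366), was called higher in MCD livers than on normal diet. It had 0 counts in the 4 normal-diet libraries of the MCD cohort, 85, 35, 26 and 20 counts in the MCD vehicle libraries and 15, 14 and 14 counts in the MCD DTMB libraries. In CPM these were 1.11, 0.462, 0.343 and 0.312 with vehicle and 0.277, 0.205 and 0.235 with DTMB. Against a floor of 3 counts over the normal-diet group, the level was at least 37.2-fold higher with vehicle and at least 15.5-fold higher with DTMB (counting error only), with adjusted p = 0.000283 and 0.00171. Per kilobase of exon it read 0.819 ± 0.550 CPM with vehicle on MCD (SD, n = 4), beside 349 ± 55.6 for the ubiquitous Cox6a1. In the HFD cohort Cox6a2 had 12 counts (0.186 CPM) in HFD vehicle replicate 4 and 11 (0.198 CPM) in HFD DTMB replicate 1. HFD DTMB replicates 2 and 3 had 4 counts each, and HFD vehicle replicate 2 had 2.

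Muscle transcripts were near 0 in several libraries of the MCD cohort. The 10 muscle genes summed to 3.5, 0.4, 0.4 and 7.7 CPM in the MCD vehicle libraries, 0.2, 0.6 and 0.7 CPM in the MCD DTMB libraries and 0.4 to 0.8 CPM on normal diet, with 8 of 10 at 0 in vehicle replicates 2 and 3 and 8 or 9 of 10 at 0 with DTMB. In the normal-diet library of the HFD cohort that held 271.8 CPM of muscle transcripts, Cox6a2 read 4.23 CPM. On chromosome 7, Itgad, an integrin gene of macrophages, shares 70 bases with the annotated span of Cox6a2 and had 0 counts in all but 2 libraries (17 in MCD vehicle replicate 2 and 6 in MCD DTMB replicate 2). Itgax (CD11c), another integrin gene on that chromosome, read 639, 1497, 965 and 548 counts in the MCD vehicle libraries and 19 to 59 on normal diet. Whether reads of neighbouring transcripts enter the counts of Cox6a2 was not tested.

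Cox7a1, the muscle and brown fat form of subunit 7a, was the other isoform called on MCD. It read 2.03, 0.564, 0.659 and 0.647 CPM on normal diet and 0.104, 0.291, 0.330 and 0.218 CPM on MCD with vehicle, -2.05 ± 0.52 (SE), adjusted p = 0.00831. Normal-diet replicate 1 stood apart from the other 3, and the groups did not overlap without it either.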

How the data were processed

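Polyadenylated liver RNA was sequenced from stranded libraries in 22 samples. The deposited values are raw read counts per gene, 1 table per cohort; per the submitters' processing notes the tools were FastQC 0.11.7, Trimmomatic 0.38, HISAT2 2.1.0 and StringTie 2.1.3b on mm10, and strand and multi-mapping settings of the counting were not stated. The members and the other gene lists were chosen with earlier results of these data known.

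Each cohort was fitted apart with edgeR 4.0.16 (R 4.3.3): filterByExpr, TMM scaling, and the quasi-likelihood test on 3 groups of 11 libraries, with Benjamini-Hochberg adjustment over all genes tested and a threshold of 0.05. Every adjusted p given is from this test, which also gave the differences between cohorts from a fit of 22 libraries. SE is the size of the log2 fold change over the root of F, and intervals are 95%. CPM used TMM-scaled library sizes within a cohort, and marker sums used library totals, so CPM levels of different cohorts were not tested against each other. Exon lengths are the union of GENCODE vM21 exons.

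In full were named, per comparison within a cohort, the members of smallest p (5 in complex I, 3 in complex III, 4 in complex IV), all 4 of complex II, the 4 of smallest p for each difference between cohorts, the redox-centre and tissue-restricted members, those of largest rise and fall, and 2 genes of smallest p per other list. Ndufs3, Ndufa4, Ndufa5, Ndufa7, Cox6a1, Uqcrc1, Uqcrc2 and the gene copies were chosen after their values were seen. The alternatives were DESeq2 1.42.0, limma-voom (limma 3.58.1), other scalings and filters, only the groups compared, all 22 libraries, a replicate block, libraries left out, and, added after the data were seen, length and GC offsets. The procedure was tested on simulated data.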

Additional observations from a re-analysis of the deposited data

Results flagged for a closer look

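In 116 groups of 4 libraries, over 24 members and the summed complexes, 6 had a library far from the other 3, and chance gives about 1 in 20. These were the summed complex II in HFD DTMB replicate 1 (highest, 1029.8 CPM), Ndufb2 in MCD vehicle replicate 4 (highest, 44.1 CPM), Cox4i1 in the MCD cohort's normal-diet replicate 2 (lowest, 324 CPM), Cox6a2 in HFD vehicle replicate 4 (highest, 0.186 CPM), Cox7a1 in replicate 1 of the normal-diet mice of the MCD cohort (highest, 2.03 CPM) and Cox6b2 in HFD DTMB replicate 3 (highest, 0.165 CPM). Cox6a2, Cox7a1 and Cox6b2 are isoforms with few counts.

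The effect of HFD differed from that of MCD (vehicle against normal diet, edgeR's quasi-likelihood test of the difference) in 14 of 67 members. The log2 fold change on HFD minus that on MCD was 0.73 for Ndufv3, 0.51 for Uqcrb, 0.50 for Uqcrq, 0.48 for Ndufa6, 0.48 for Sdha, 0.44 for Ndufa10, 0.43 for Ndufb11 and 0.39 for Ndufa9. It was -0.80 for Uqcr10, -0.60 for Ndufa5, -0.44 for Ndufa8 and -0.38 for Uqcrfs1. For the copy Ndufs6b it was 3.74, from low counts and with no test in the MCD cohort alone. For Cox6a2 it was -12.67, a fitted value that depends on the prior count because a group was at 0 counts, and is no bound.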

How the results depend on the processing

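Counts of members called are given against those of the reported fit: 10 for HFD vehicle and 29 for HFD DTMB (against vehicle), 17 for HFD DTMB and 15 and 10 for MCD vehicle and MCD DTMB against normal diet, and 14 for the difference between diets. DESeq2 and limma-voom each called 16 on HFD, and limma-voom called 41 on MCD, 16 for MCD DTMB and 24 for the difference. Library size alone gave 8 (median 0.015) and 12 (0.10) for HFD and HFD DTMB against vehicle, 33 (0.27) and 32 (0.32) for MCD and MCD DTMB against normal diet, and 30 (-0.28) for the difference. It also turned the sign of Ndufa9 (0.067), Sdha (0.091) and Uqcr11 (0.014) on MCD and of Ndufa9 (0.032) and Sdha (0.013) for MCD DTMB. Without a count filter 19, 9 and 6 were called for HFD DTMB against vehicle, HFD DTMB against normal diet and MCD DTMB against normal diet, and with only the 2 groups compared 10 for HFD DTMB against normal diet. Without libraries with acinar transcripts the counts were 2, 0 and 0 (median 0.032) for the 3 HFD comparisons and 1 for the difference. Length and GC offsets gave 20 (median -0.25), 7 and 4 (-0.045) for HFD and 26 and 16 for MCD and MCD DTMB against normal diet. All 22 libraries in 1 fit gave 4, 5 and 6 for the HFD comparisons. The cause of these changes was not tested. Leaving out each library in turn gave 5 to 15, 3 to 38 and 5 to 19 for the HFD comparisons, 10 to 35 and 2 to 14 for MCD and MCD DTMB against normal diet, 9 to 22 for the difference, and 0 for DTMB against vehicle on MCD.

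With a replicate block the counts were 19 for HFD DTMB against vehicle, 6 for HFD DTMB against normal diet and 7 (5 higher, 2 lower, median 0.00) for MCD DTMB against normal diet. Nothing says that replicate numbers pair mice, and the correlation of same-numbered libraries ranged from -0.435 to 0.354 on HFD and from -0.396 to 0.122 on MCD.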
